A study of Mus musculus with 8 samples.

Results

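Chemokines that attract the cells of type 2 immunity, and chemokines made by the resident cells of skin, were examined in inflamed mouse ears. The set holds 10 genes out of the 19126 listed, taken by name: Ccl11, Ccl17, Ccl22, Ccl24, Ccl27a, Cxcl12, Cxcl13, Cxcl14, Cxcl16 and Cx3cl1. All 10 were found, and 9 had enough reads to be tested between the groups. Cxcl13 did not. The libraries came from left ears, 1 from each of 8 C57BL/6 mice, aged 6 to 8 weeks, in a model of allergic contact dermatitis. Every mouse received 25 µL of 0.3% dinitrofluorobenzene (DNFB, a skin sensitiser) at the start, and on day 6 the left ear was painted with 10 µL of 0.25% DNFB. Then 4 mice were given MMP-9-IN-1, which blocks matrix metalloproteinase 9 (a protease of the extracellular space), at 10 mg/kg by the intraperitoneal route. The 4 vehicle mice had its solvent alone (10% DMSO, 40% PEG300 and 50% PBS), and ears of both groups were taken after 4 days of treatment. The comparison asks how blocking the protease alters the challenged ear, since both groups carry the DNFB reaction. Ears without DNFB were not analysed here, so no value says how far DNFB itself moved a chemokine.

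Chemokines are small secreted proteins that guide leukocytes through G protein-coupled receptors. They are sorted by the spacing of their first cysteines into CC, CXC and CX3C types. In skin, Ccl17 and Ccl22 draw T cells that carry Ccr4, Ccl11 and Ccl24 draw eosinophils through Ccr3, and the keratinocyte product Ccl27 draws skin-homing T cells through Ccr10. Cxcl12 and Cxcl14 are made steadily by stromal and epithelial cells, Cxcl13 guides B cells through Cxcr5, and Cxcl16 and Cx3cl1 are unusual in being anchored in the membrane until a protease releases them.

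The 10 chemokines spanned a wide range of levels. On the deposited TPM scale, which is per transcript length and so allows genes to be set side by side, the median over the 8 ears was 153 for Cxcl14, 91.8 for Cxcl12, 70.6 for Cxcl16 and 43.1 for Ccl27a. It was 12.4 for Ccl22, 9.61 for Cx3cl1, 5.37 for Ccl11, 3.26 for Ccl24, 2.12 for Ccl17 and 0.16 for Cxcl13. The 3 genes Cxcl14, Cxcl12 and Cxcl16 together held from 68.2% to 87.2% of the summed TPM of the set in an ear. The order was firm at some steps only. Cxcl14 was above Cxcl12 in 8 of 8 ears, Ccl27a above Ccl22 in 8 of 8, and Ccl17 above Cxcl13 in 8 of 8 with ranges that did not overlap. Cxcl12 exceeded Cxcl16 in 6 of 8 ears, Ccl22 exceeded Cx3cl1 in 5 of 8, and Ccl24 exceeded Ccl17 in 6 of 8, so these neighbours could not be ordered beyond their spread. The other 3 steps held in 7 of 8 ears.

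**Figure D1:**
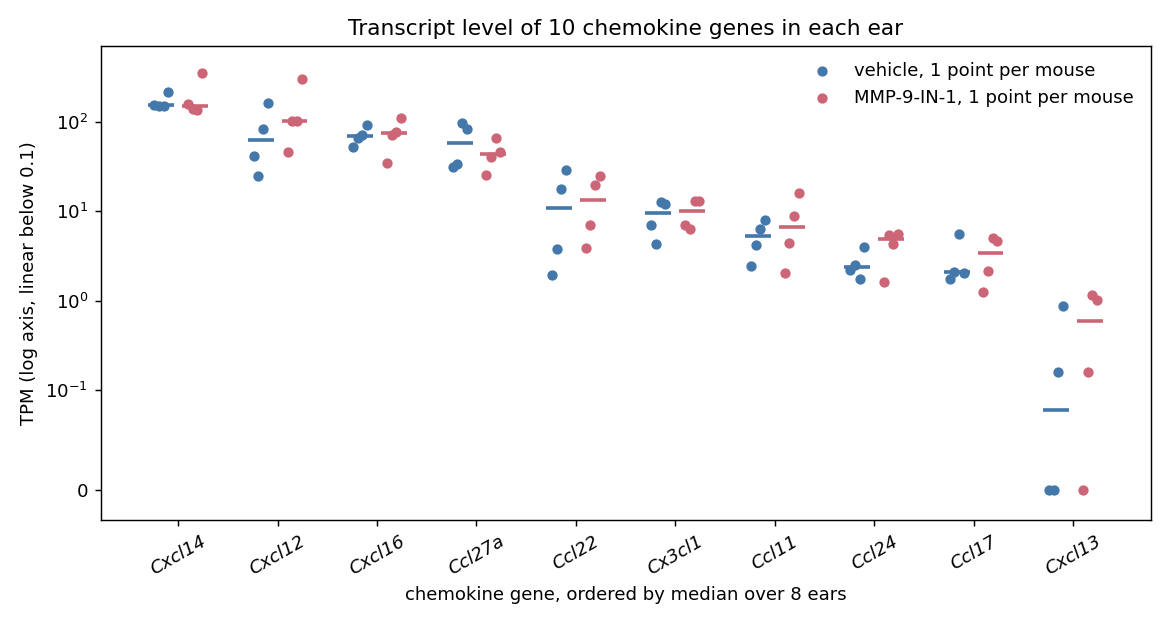
Deposited TPM (log axis, linear below 0.1) of the 10 chemokine genes, ordered by their median over 8 ears. Each point is 1 mouse, blue for vehicle and red for MMP-9-IN-1, and each bar is the median of 4. Cxcl14, Cxcl12, Cxcl16 and Ccl27a lie at the top with medians of 43.1 to 153 TPM, and Cxcl13 lies at the bottom with 3 ears at 0.

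The libraries held 13863207 to 18512231 counted reads, with inhibitor mouse 1 the smallest. Keratinocyte transcripts were abundant in every ear, as the labelled tissue requires: the basal markers (Krt14, Krt5 and 5 others) summed to 13680 to 24790 CPM (reads per 1e+06 reads, scaled with TMM factors). Immune content differed widely between ears. Neutrophil markers (8 of 8 tested) summed to 10550 and 13680 CPM in vehicle mice 1 and 2 and 7283 CPM in inhibitor mouse 2, against 804 to 1083 CPM in the other 5 ears. T cell markers (7 of 9 listed were tested) summed to 8.20 to 28.4 CPM in mice 1 and 2 of both groups and to 74.6 to 162 CPM in mice 3 and 4. Muscle markers (7 of 7 tested, all with estimates above 0, median log2 fold change 1.13) and adipocyte markers (6 tested, 5 above 0, median 0.47) had 0 calls. The labels do not say what a mouse number marks. In such bulk tissue, fewer cells of a type and less RNA per cell cannot be told apart. Where such contents are set beside a chemokine below, their part in its values was not tested.

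The inhibitor left no chemokine of the set past the threshold. Of the 9 tested, 0 reached a Benjamini-Hochberg adjusted p of 0.05 in edgeR's quasi-likelihood test, as 0.0% of all 15096 genes did, and each had an adjusted p of 0.999. At an unadjusted p under 0.05 there were 0 of the 9, against 157 of all genes (1.04%). With the mouse number as a block there was 1 of the 9, Ccl27a, against 724 of all genes. Without inhibitor replicate 1 there was 1 of 10, Ccl24, against 137 of 15327 genes. DESeq2 and limma-voom also called 0 of the 9, with 0 at an unadjusted p under 0.05 in each, against 293 and 296 of all genes. Estimates were above 0 for 7 and below 0 for 2, where 54.5% of all genes were above 0, and the median log2 fold change (inhibitor minus vehicle) was 0.07 against 0.03 over all genes. In all 9 genes the values of the groups overlapped, while 1.19% of all genes had groups that did not overlap. The 95% intervals show what the 4 mice per group could resolve. They were narrowest for Cxcl14, Cx3cl1 and Cxcl16, from 0.64- to 1.72-fold, 0.63- to 1.67-fold and 0.57- to 1.58-fold, and widest for Ccl22, from 0.29- to 3.79-fold.

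**Figure D2:**
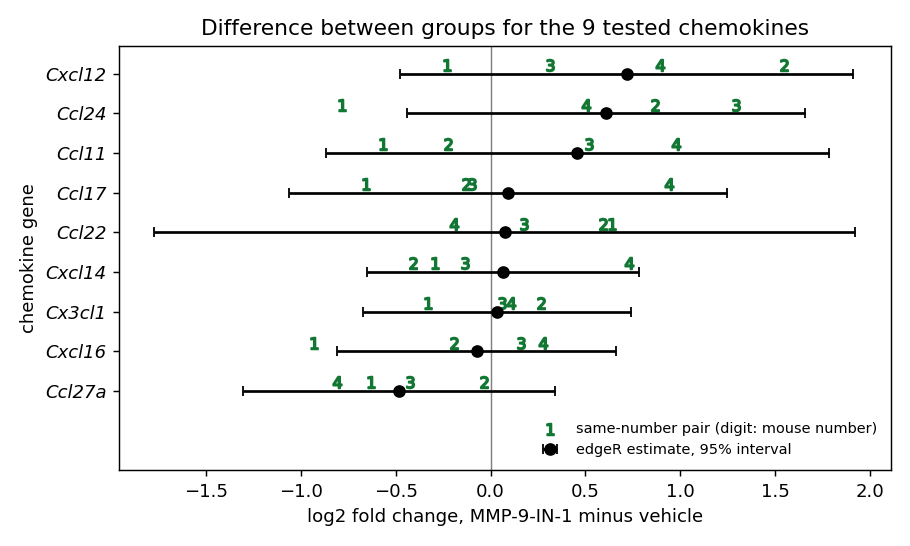
Log2 fold change of the 9 tested chemokines, inhibitor minus vehicle, on the x axis, with the edgeR estimate (black point) and its 95% interval. Green digits give the difference in log2 CPM within each same-number pair of mice. Every interval includes 0, and only Ccl27a has all 4 pairs on the same side of 0.

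Inhibitor mouse 1 had the lowest CPM of all 8 ears for 5 of the 9 tested chemokines (Ccl11, Ccl17, Ccl24, Ccl27a and Cxcl16), and inhibitor mouse 4 had the highest for 5 (Ccl11, Cxcl12, Cxcl14, Cxcl16 and Cx3cl1). The vehicle ears held the lowest value for 3 (Ccl22, Cxcl12 and Cx3cl1) and the highest for 3 (Ccl17, Ccl22 and Ccl27a). Within both groups, Ccl11, Ccl22 and Cx3cl1 were higher in mice 3 and 4 than in mice 1 and 2, which is 3 of the 9 members. The same held for 23.0% of all genes, and the reverse for 21.1% of all genes and for 0 of the 9. The standard deviation of Ccl22 over the 8 ears, 1.31 in log2 CPM, was larger than that of 94.7% of tested genes, and that of Cxcl14, 0.43, was larger than that of 59.0%.

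**Figure D3:**
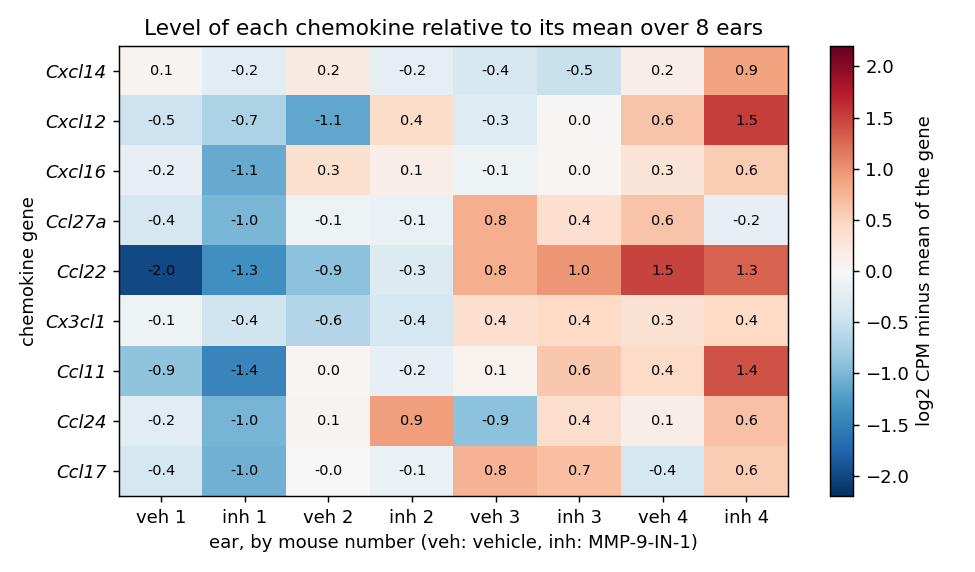
Log2 CPM of the 9 tested chemokines in each ear, minus the mean of the gene over 8 ears (colour and printed value), with columns ordered by mouse number. Ccl22 runs from 2.0 below its mean in vehicle mouse 1 to 1.5 above it in vehicle mouse 4, inhibitor mouse 1 is below the mean for all 9 genes, and Cxcl14 and Cx3cl1 vary least.

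Ccl22 and Ccl17 are the ligands of Ccr4 and are classical products of activated dendritic cells. Ccl22 measured 2.56, 5.58, 18.2 and 29.5 CPM across the vehicle ears (mice 1 to 4) and 4.04, 8.46, 20.6 and 25.8 CPM across the inhibitor ears. It was low in mice 1 and 2 and high in mice 3 and 4 of both groups, and the groups overlapped almost fully. Between groups, edgeR estimated a log2 fold change of 0.08 (SE 0.81, adjusted p = 0.999). With the mouse number as a block the estimate was 0.28 (SE 0.19), and it was 0.74 without vehicle replicate 4. It turned to -0.29 and -0.20 without vehicle replicates 1 and 2, and to -0.13 and -0.34 without inhibitor replicates 3 and 4. Of the 12 dendritic and Langerhans cell markers, all tested, 7 were likewise higher in mice 3 and 4 of both groups, among them Cd207 and the antigen-presentation genes Cd74 and H2-Ab1. The other 5, Epcam, Itgax, Xcr1, Ccr7 and Fscn1, did not have that order. The sum, carried in mice 3 and 4 by Cd74 and H2-Ab1, was 512, 704, 2183 and 3361 CPM in the vehicle ears and 422, 1017, 2116 and 3584 CPM in the inhibitor ears. Their part in the Ccl22 values was not tested.

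Ccl17 was scarce, with 9, 12, 29 and 12 reads in vehicle mice 1 to 4 and 5, 12, 27 and 25 reads in inhibitor mice 1 to 4. Those reads amount to 0.605, 0.826, 1.49 and 0.611 CPM with vehicle and 0.343, 0.746, 1.38 and 1.28 CPM with the inhibitor. It did not follow Ccl22 in every ear, since vehicle mouse 4 had the most Ccl22 but a low Ccl17. The ratio of Ccl22 to Ccl17 in TPM was 1.11, 1.78, 3.24 and 13.9 in vehicle mice 1 to 4 and 3.11, 3.26, 3.95 and 5.32 in inhibitor mice 1 to 4. The log2 fold change of Ccl17 was 0.09 (SE 0.50, edgeR adjusted p = 0.999), and it turned to -0.06 and -0.05 without vehicle replicates 1 and 4, and to -0.15 and -0.09 without inhibitor replicates 3 and 4. Its 95% interval ran from 0.48- to 2.37-fold.

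The receptor Ccr4 measured 0.471, 1.31, 8.41 and 8.91 CPM across the vehicle ears (mice 1 to 4) and 0.685, 4.73, 6.39 and 5.89 CPM across the inhibitor ears. As with Ccl22, mice 3 and 4 were above mice 1 and 2 in both groups, and the estimate between groups was -0.11 (SE 0.93). The T cell markers, summed, had 8.34, 8.20, 80.3 and 162 CPM with vehicle and 12.0, 28.4, 74.6 and 141 CPM with the inhibitor. Ccr8, a receptor of type 2 T cells whose ligands in mice are Ccl1 and Ccl8, was listed with the receptors and had 0 to 0.249 CPM in mice 1 and 2 and 0.923 to 1.84 CPM in mice 3 and 4.

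**Figure D4:**
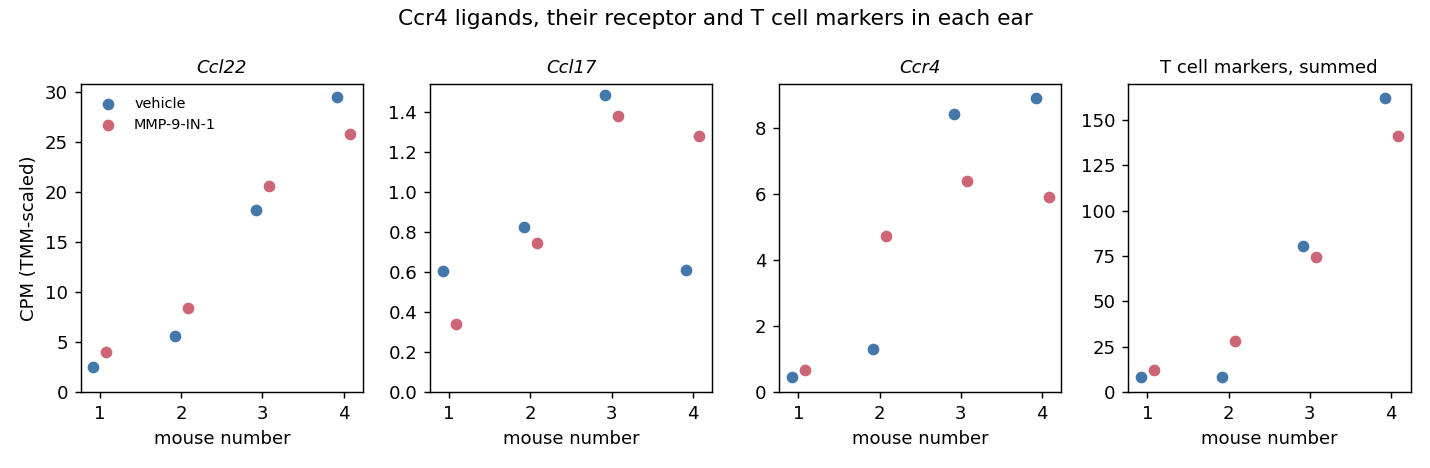
CPM (y axis, each panel on its own linear scale from 0) of Ccl22, Ccl17, their receptor Ccr4 and the summed T cell markers, by mouse number, blue for vehicle and red for MMP-9-IN-1, 1 point per ear. Ccl22, Ccr4 and the T cell markers are higher in mice 3 and 4 than in mice 1 and 2 of both groups, while Ccl17 is low in vehicle mouse 4.

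Ccl22, Cx3cl1 and Ccl17 are direct neighbours on mouse chromosome 8, with no other protein-coding gene between them in the RefSeq gene table. Because these neighbours share a locus but differed in level and spread, the 250 bases before each start site are shown, from RefSeq's promoter table on build GRCm38.p6 (the deposited values use GRCm39, so positions apply to the former only). All 3 lie on the plus strand, the windows being chr8:94745434-94745683 for Ccl22, chr8:94771930-94772179 for Cx3cl1 and chr8:94810203-94810452 for Ccl17. Capitals mark matches, on either strand, to any of the motifs searched.
Ccl22: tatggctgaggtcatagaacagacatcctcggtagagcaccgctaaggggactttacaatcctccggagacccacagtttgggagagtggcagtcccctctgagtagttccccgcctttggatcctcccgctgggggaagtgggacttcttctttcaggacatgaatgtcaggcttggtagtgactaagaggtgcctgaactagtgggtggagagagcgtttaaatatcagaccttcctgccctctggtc
Cx3cl1: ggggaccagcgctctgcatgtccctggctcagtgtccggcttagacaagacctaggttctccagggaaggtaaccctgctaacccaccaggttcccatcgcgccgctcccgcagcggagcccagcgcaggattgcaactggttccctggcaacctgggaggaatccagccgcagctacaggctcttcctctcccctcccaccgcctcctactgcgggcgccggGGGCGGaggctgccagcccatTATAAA
Ccl17: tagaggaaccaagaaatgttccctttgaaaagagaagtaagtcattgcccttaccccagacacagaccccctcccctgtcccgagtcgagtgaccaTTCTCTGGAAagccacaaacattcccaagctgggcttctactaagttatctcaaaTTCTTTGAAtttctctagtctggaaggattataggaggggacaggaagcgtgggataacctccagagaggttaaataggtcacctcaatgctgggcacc
The motifs were TTC and GAA with 4 free bases between them, the spacing preferred by STAT6, the transcription factor of interleukin-4 and interleukin-13 signalling, the same with 3 free bases, the spacing of other STAT factors, GGG and TTCC with 2 or 3 free bases between them, both forms of NF-kB sites, TATAAA, the letters of a TATA box, and GGGCGG, those of a GC box. In the window of Ccl17, the STAT6 form matched at 154 to 145 bases before the start site and the other STAT form at 99 to 91 bases before it. Of 32851 such windows in the table, 5.85% held the former and 7.02% the latter. The window of Cx3cl1 held GGGCGG at 27 to 22 bases before the start site and TATAAA at 6 to 1 bases before it, letters found in 32.7% and 12.4% of windows, and the letters of the 6 motifs were not in that of Ccl22. The NF-kB forms were in 4.98% and 4.65% of all windows and in none of these 3. A match is a description of the letters, not of a bound site. Of the 10 members 7 had an entry in the table.

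Cx3cl1 (fractalkine), the neighbour of Ccl22, is a membrane-anchored chemokine of endothelium and epithelium. It measured 16.1, 11.1, 22.7 and 21.9 CPM across the vehicle ears (mice 1 to 4) and 12.8, 13.4, 23.7 and 23.7 CPM across the inhibitor ears. It was higher in mice 3 and 4 of both groups, by far less than Ccl22, and the groups overlapped. As a log2 fold change, the group difference came to 0.03 (SE 0.31, adjusted p = 0.999 in edgeR), and it turned to -0.03 and -0.16 without vehicle replicates 1 and 2, and to -0.11 without inhibitor replicate 3 or 4. The suprabasal keratinocyte markers had this order as a sum and in 4 of the 7 genes. They summed to 1235 to 1875 CPM in mice 1 and 2 and 2399 to 3855 CPM in mice 3 and 4. The basal keratinocyte markers had this order in 1 gene and the reverse in 2. Their sums had it with vehicle, but not with the inhibitor (22310, 17370, 22750 and 14710 CPM in mice 1 to 4). The endothelial markers (7 of 7 tested) had it in 1 gene, Vwf, and not as a sum, with totals of 331, 285, 192 and 271 CPM with vehicle and 154, 283, 201 and 377 CPM with the inhibitor. Its receptor Cx3cr1, carried by monocytes, macrophages and some T cells, had 0.895 to 6.16 CPM with vehicle and 2.19 to 4.201 CPM with the inhibitor, with an estimate of -0.002 (SE 0.52).

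Cxcl16, the other membrane-anchored chemokine, is also a scavenger receptor for oxidised lipoprotein. It measured 56.2, 80.6, 58.6 and 77.6 CPM across the vehicle ears (mice 1 to 4) and 29.5, 70.4, 65.6 and 93.9 CPM across the inhibitor ears. Both the lowest and the highest ear belonged to the inhibitor group, and in edgeR the log2 fold change stood at -0.07 (SE 0.32, adjusted p = 0.999). Without inhibitor replicate 1 it turned to 0.17, and the total-count scaling gave 0.03. Part of the Cxcl16 signal is uncertain, because 16.9% of the 50-base words of its transcripts also occur in transcripts of the overlapping gene Zmynd15, and the kit is not stated to keep strand. Zmynd15 itself had 5.07 to 11.8 CPM. The receptor Cxcr6 had 1.08, 0.895, 8.15 and 16.96 CPM with vehicle and 1.30, 2.24, 7.05 and 16.5 CPM with the inhibitor, higher in mice 3 and 4 of both groups, as the T cell markers were.

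The proteases that release both proteins were expressed in every ear. Adam17 had 57.8 to 71.9 CPM with vehicle and 54.1 to 80.3 CPM with the inhibitor, with a log2 fold change of 0.06 (SE 0.14). Adam10 had 64.4 to 120 CPM with vehicle and 75.1 to 130 CPM with the inhibitor, with a log2 fold change of 0.23 (SE 0.25). Both had an edgeR adjusted p of 0.999. Transcript levels do not report the cleavage of the proteins, which was not measured.

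Ccl11 and Ccl24 (eotaxins) recruit eosinophils through Ccr3. Ccl11, made by fibroblasts, measured 1.88, 3.65, 3.74 and 4.79 CPM across the vehicle ears (mice 1 to 4) and 1.23, 3.11, 5.42 and 9.53 CPM across the inhibitor ears. The inhibitor ears enclosed the whole vehicle range, with mouse 1 below it and mice 3 and 4 above it. edgeR put the log2 fold change at 0.46 (SE 0.58, adjusted p = 0.999). It rested on inhibitor mouse 4, since it was -0.11 without inhibitor replicate 4, and the block gave 0.24 (SE 0.31). The fibroblast markers (9 of 9 tested), as a sum, were also highest in mouse 4 of each group, as were the collagen genes Col1a1, Col1a2 and Col3a1, but Dcn and Pdgfra were highest in vehicle mouse 2 among the vehicle ears and Thy1 in inhibitor mouse 1 among the inhibitor ears. The sums were 2465, 3547, 4422 and 8196 CPM with vehicle and 2576, 3920, 4412 and 9815 CPM with the inhibitor, and their part in the Ccl11 values was not tested.

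Ccl11 sits on mouse chromosome 11 in a row with Ccl2, Ccl7, Ccl12 and Ccl8, which attract monocytes. Its direct neighbours did not share its order of ears. Ccl7 measured 91.0, 59.4, 20.1 and 36.9 CPM across the vehicle ears (mice 1 to 4) and 53.8, 120, 35.8 and 76.0 CPM across the inhibitor ears. Ccl12 had 15.4, 31.1, 6.31 and 10.1 CPM with vehicle and 12.0, 28.2, 6.18 and 14.6 CPM with the inhibitor. Both were higher in vehicle mice 1 and 2 than in vehicle mice 3 and 4, where Ccl11 ran the other way. Ccl8, which like Ccl11 can be made by stromal cells and macrophages, had 25.1, 89.8, 112 and 158 CPM with vehicle and 38.5, 152, 125 and 328 CPM with the inhibitor, with a log2 fold change of 0.74 (SE 0.68, edgeR adjusted p = 0.999).

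Ccl24, a macrophage product, measured 1.61, 2.00, 0.974 and 2.14 CPM across the vehicle ears (mice 1 to 4) and 0.891, 3.73, 2.56 and 3.07 CPM across the inhibitor ears. Inhibitor mice 2, 3 and 4 were above every vehicle ear, and inhibitor mouse 1 was below them all. Between groups, edgeR estimated a log2 fold change of 0.61 (SE 0.46, adjusted p = 0.999), the second largest of the set, from 13 to 60 reads per ear. Without inhibitor replicate 1 it was 0.89 (adjusted p = 0.918). Macrophage markers (10 of 10 tested, 9 with an estimate above 0) had a median log2 fold change of 0.51. They summed to 382, 514, 898 and 1413 CPM with vehicle and 333, 990, 978 and 2098 CPM with the inhibitor. The sum was again lowest in inhibitor mouse 1, as were Adgre1, Csf1r, Folr2 and Cd68. The other markers, C1qa, C1qb, C1qc, Mrc1, Cd163 and Lyve1, were lowest in vehicle mouse 1. The part of macrophages in the Ccl24 estimate was not tested.

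Epx and Prg2, which encode granule proteins of eosinophils, were close to 0. Epx, the eosinophil peroxidase gene, had 0 CPM in 7 ears and 0.0513 CPM in vehicle mouse 3, from 1 read, and Prg2, which encodes the major basic protein, had at most 0.154 CPM. Siglecf had 0 to 1.17 CPM. The receptor Ccr3 itself measured 4.57, 11.1, 0.513 and 0.968 CPM across the vehicle ears (mice 1 to 4) and 0.274, 3.36, 0.716 and 0.666 CPM across the inhibitor ears. edgeR gave it a log2 fold change of -1.76 (SE 1.07, adjusted p = 0.999), with the high values in vehicle mice 1 and 2 and inhibitor mouse 2.

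Ccl27a, which encodes the keratinocyte chemokine that guides skin-homing T cells, measured 9.28, 11.2, 20.9 and 18.7 CPM across the vehicle ears (mice 1 to 4) and 5.96, 10.9, 15.5 and 10.6 CPM across the inhibitor ears. The inhibitor ear was the lower one in all 4 same-number pairs, by 0.63, 0.04, 0.43 and 0.81 on the log2 scale, as was the case for 6.19% of all genes, while no member was higher in all 4 pairs, as 10.4% of all genes were. As a log2 fold change, the group difference came to -0.48 (SE 0.36, adjusted p = 0.999 in edgeR), and with the mouse number as a block it was -0.48 (SE 0.17, adjusted p = 0.717). Without 1 library it ran from -0.71 to -0.28. Suprabasal keratinocyte markers also had lower estimates (7 of 7, median log2 fold change -0.34), with sums of 1235, 1774, 3604 and 3855 CPM with vehicle and 1246, 1875, 2896 and 2399 CPM with the inhibitor. The basal keratinocyte markers did not share this, with 4 estimates above 0, 3 below and a median of 0.06. Their sums were 13680, 13990, 24790 and 22600 CPM with vehicle and 22310, 17370, 22750 and 14710 CPM with the inhibitor. The part of keratinocytes in the Ccl27a estimate was not tested.

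Ccl27a has near-identical copies in the mouse genome, so its value is uncertain. In the GENCODE M21 transcripts, 45.0% of its 50-base words, the length of a read, also occur in other genes, and its deposited reads are partly fractions. Among the copies, Ccl27b and Gm13306 had 0.874 to 10.7 and 0.276 to 7.02 CPM. Gm20878, which shared the most words with Ccl27a (761 of 2677), was left out of the sum. Ccl27a, Ccl27b and Gm13306 summed to 11.4, 12.4, 38.6 and 30.4 CPM across the vehicle ears (mice 1 to 4) and 7.74, 15.6, 26.2 and 18.0 CPM across the inhibitor ears. On this sum inhibitor mouse 2 was above vehicle mouse 2, so the 4 pairs no longer pointed 1 way. The receptor Ccr10 was too scarce to test, with 0 to 0.359 CPM. The 8 members other than Ccl27a and Cxcl16 shared no 50-base word with another gene.

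Cxcl12 (stromal cell-derived factor 1) is made by fibroblasts and endothelium and acts through Cxcr4. It measured 88.6, 55.2, 100 and 188 CPM across the vehicle ears (mice 1 to 4) and 75.6, 161, 124 and 349 CPM across the inhibitor ears. The log2 fold change of 0.72 (SE 0.52, edgeR adjusted p = 0.999) was the largest of the set, a 1.64-fold difference with an interval from 0.72- to 3.76-fold. The inhibitor ear was higher in 3 of the 4 same-number pairs, by 1.55, 0.31 and 0.89 on the log2 scale, and lower by 0.23 in the pair of mice 1. The estimate was 0.16 without inhibitor replicate 4 and 1.13 without vehicle replicate 4, and the fits without 1 of the other libraries lay between them. The fibroblast sums given above were highest in mouse 4 of both groups, as was Cxcl12. Vehicle mouse 2 had the least Cxcl12, but its fibroblast sum was above that of vehicle mouse 1. The endothelial sums given above were highest in mouse 4 among the inhibitor ears, but in mouse 1 among the vehicle ears. The part of these cells in the Cxcl12 values was not tested.

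Cxcr4, the signalling receptor of Cxcl12, measured 35.2, 58.6, 23.3 and 43.2 CPM across the vehicle ears (mice 1 to 4) and 8.02, 57.7, 27.0 and 46.3 CPM across the inhibitor ears. Inhibitor mouse 1 was far below the others, and the log2 fold change was -0.21 (SE 0.54). Ackr3, which scavenges Cxcl12, had 90.9, 89.1, 44.2 and 43.1 CPM with vehicle and 77.8, 66.4, 49.4 and 78.9 CPM with the inhibitor, with an estimate of 0.03 (SE 0.30). Dpp4, a membrane peptidase that trims Cxcl12, Ccl11 and Ccl22, had 9.01 to 24.6 CPM with vehicle and 10.1 to 29.8 CPM with the inhibitor, with an estimate of 0.16 (SE 0.44). Of the gelatinases known to clip Cxcl12, Mmp2 stood at a log2 fold change of -0.09 (SE 0.35) and Mmp9 at -1.76 (SE 1.23). Mmp9 was uneven between ears, with 249.9, 258.5, 8.15 and 17.1 CPM with vehicle (mice 1 to 4) and 10.1, 113, 12.0 and 21.8 CPM with the inhibitor. All 5 genes had an edgeR adjusted p of 0.999.

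Cxcl14, an epithelial and stromal chemokine with no settled receptor, was the most abundant member in TPM, and with Cx3cl1 it varied least between ears. It measured 208, 231, 156 and 223 CPM across the vehicle ears (mice 1 to 4) and 170, 174, 142 and 370 CPM across the inhibitor ears. The lowest ear was inhibitor mouse 3 and the highest inhibitor mouse 4. In edgeR the estimate (log2) stood at 0.07 (SE 0.31, adjusted p = 0.999), and it was -0.33 without inhibitor replicate 4, -0.04 without vehicle replicate 3 and -0.03 (SE 0.21) with the mouse number as a block. Cxcl14 stood above Cxcl12 by 3.72-, 6.07-, 1.80- and 1.32-fold in TPM in vehicle mice 1 to 4 and by 3.43-, 1.36-, 1.33- and 1.19-fold in inhibitor mice 1 to 4. The gap was thus widest in the 3 ears with the least Cxcl12.

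Cxcl13, the B cell attractant of lymphoid stroma, was barely detected. It had 0, 0, 2 and 11 reads in vehicle mice 1 to 4 and 0, 2, 15 and 13 reads in inhibitor mice 1 to 4. In the 3 ears without a read, 3 reads would amount to 0.202, 0.207 and 0.206 CPM, so levels up to these could have been missed. The reads lay mostly in mice 3 and 4. Without the low-count filter the log2 fold change in edgeR came to 1.16 (SE 1.26, adjusted p = 1.0). Of the B cell markers, Ms4a1 had 0 to 0.207 CPM, Cd79a 0.204 to 1.61 CPM, Pax5 0.274 to 1.68 CPM and Cd79b, which was tested, 0.206 to 2.56 CPM. The receptor Cxcr5 measured 4.37, 8.20, 0.513 and 1.22 CPM across the vehicle ears (mice 1 to 4) and 0.0685, 4.91, 0.716 and 0.820 CPM across the inhibitor ears, with a log2 fold change of -1.13 (SE 1.14).

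Genes of the type 2 cytokine axis gave no call either. The 22 listed genes hold cytokines and their receptors, but also target genes such as Arg1 and Postn, and the chemokine Ccl26. Of them 14 were tested and 0 passed in either direction. Their estimates were above 0 for 8 and below for 6, with a median log2 fold change of 0.01. The cytokines that induce Ccl17, Ccl22, Ccl11 and Ccl24 in mice were too scarce to test, with Il4 at 0.0622 to 0.768 CPM and Il13 at 0 to 1.02 CPM. Their shared receptor chain Il4ra had 121 to 389 CPM with vehicle and 129 to 307 CPM with the inhibitor. Stat6, the factor downstream of it, had 99.4 to 110 CPM with vehicle and 95.6 to 114 CPM with the inhibitor and a log2 fold change of 0.01 (SE 0.11). Tslp, the epithelial alarm cytokine that primes dendritic cells to make Ccl17, measured 14.2, 105, 4.00 and 3.16 CPM across the vehicle ears (mice 1 to 4) and 5.69, 13.1, 4.45 and 3.13 CPM across the inhibitor ears. Its log2 fold change of -2.26 (SE 1.13, edgeR adjusted p = 0.999) went with 1 high ear, vehicle mouse 2. Crlf2, which encodes the Tslp receptor, and Il33, another epithelial alarm cytokine, had -0.32 (SE 0.28) and -0.42 (SE 0.42).

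Among receptors 8 of 9 listed genes were tested and 0 passed in either direction, with 2 estimates above 0, 6 below and a median log2 fold change of -0.06. Among 12 tested genes for the scavenging and processing of chemokines 0 passed, with 4 above 0, 8 below and a median of -0.09. Ackr1, which carries chemokines across venules, measured 15.2, 13.6, 9.99 and 13.3 CPM across the vehicle ears (mice 1 to 4) and 4.87, 7.21, 7.62 and 15.7 CPM across the inhibitor ears, with a log2 fold change of -0.56 (SE 0.35). Ctsg, the gene of the chemokine-cleaving protease cathepsin G, had -0.81 (SE 0.74). Both had an edgeR adjusted p of 0.999.

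The remaining chemokines had 0 calls as well. The list of neutrophil-attracting CXCR2 ligands held 6 genes, among them Pf4, which is not such a ligand. The list had a median log2 fold change of -1.12 with 5 of 6 below 0 and only Pf4 above it (0.39, SE 0.64). Cxcl2 (-1.93, SE 1.78), Cxcl1 (-1.76, SE 1.71) and Cxcl3 (-1.67, SE 1.82) led. Each was highest in vehicle mice 1 and 2 and inhibitor mouse 2. Cxcl2 had 5903, 8452, 58.6 and 195 CPM with vehicle (mice 1 to 4) and 41.7, 3534, 89.0 and 178 CPM with the inhibitor. The list median turned to 0.795 with limma-voom and 0.672 with mice 3 and 4 only, so its sign was not stable. The 8 monocyte-attracting CC chemokines had a median of 0.02 with 4 below 0, led after Ccl8 by Ccl3 (-1.85, SE 1.71) and Ccl4 (-1.59, SE 1.54). Ccl3 and Ccl4 were highest in the same ears as Cxcl2. The 3 tested interferon-induced chemokines had a median of -0.46, with Cxcl10 at -0.48 (SE 0.31) and Cxcl9 at -0.46 (SE 0.54), and 7 other tested chemokines had a median of 0.03, with Ccl28 at 0.68 (SE 0.58), Ccl20 at -0.80 (SE 1.01) and Ccl25 at -0.34 (SE 0.55). Each gene named from these 4 groups had an edgeR adjusted p of 0.999. The difference between the groups of chemokines was not tested.

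**Figure D5:**
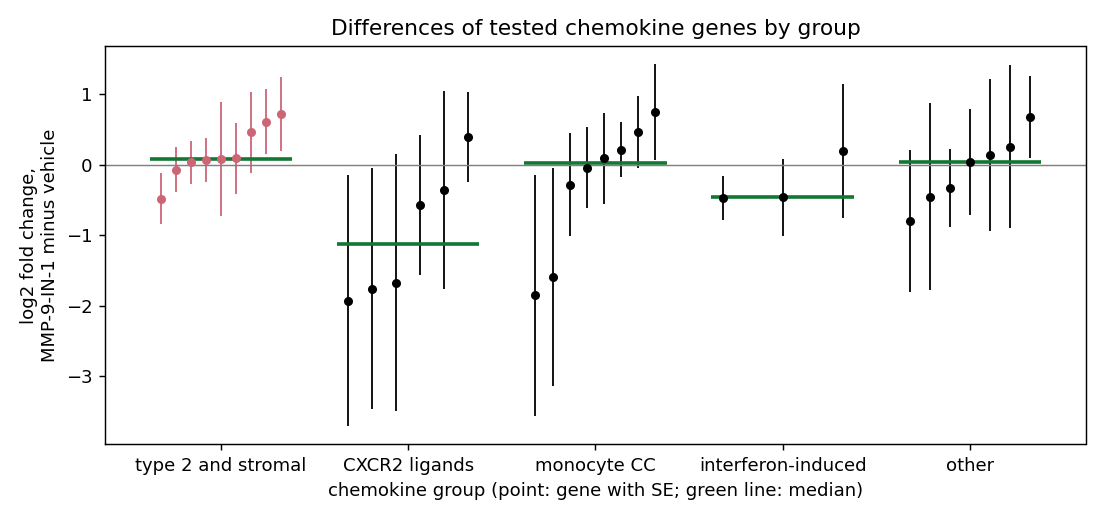
Log2 fold change (inhibitor minus vehicle, y axis) of each tested chemokine with its standard error, by group on the x axis, with a green line at the median of the group. The 9 type 2 and stromal genes (red) lie between -0.48 and 0.72. The group labelled CXCR2 ligands, which also holds Pf4, reaches -1.93 with standard errors up to 1.82.

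The genes nearest in pattern to each chemokine were sought by the root-mean-square difference of log2 CPM, centred on the mean of each gene over the 8 ears. Since all genes share the 8 libraries, closeness reflects shared ears and nothing more. Nearest to Ccl22 were Rtn1 (difference 0.16), a reticulon gene, and H2-DMb2 (0.20), which encodes a chaperone of class II antigen presentation. Nearest to Ccl11 was Fgl2 (0.13), a fibrinogen-like gene of macrophages and T cells, and nearest to Ccl27a were the epidermal protease gene Tmprss13 (0.15) and the desmoglein gene Dsg1b (0.16). Cxcl12 was nearest to the serotonin receptor gene Htr7 (0.20) and to Mmrn2 (0.21), an endothelial matrix gene. Cx3cl1 was nearest to the ion channel gene Trpv4 and to Csrp1 (0.11 each), Cxcl16 to Ckb (0.10) and Fam20a (0.12), and Cxcl14 to Rnf144a (0.14) and Nid1 (0.17). The scarce Ccl17 and Ccl24 had no gene nearer than A2m (0.26) and Ralyl (0.29).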

How the data were processed

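RNA from 8 left ears, 4 per group, was enriched for mRNA by its poly(A) tail and read from 1 end, 50 bases long, on DNBSEQ, per the labels' protocols. HISAT and build GRCm39 are named, per the submitters' processing notes. Neither a counting tool nor an annotation is named there. A single deposited table of 19126 genes holds estimated counts (expected counts, 33.7% to 35.3% of values per library not whole within 1e-09), FPKM and TPM, both of which the authors had normalised for length and depth. A further 6 columns of group means were not used.

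Expected counts were rounded. edgeR 4.0.16 (R 4.3.3) kept 15096 genes with filterByExpr and scaled libraries with TMM factors (0.815 to 1.08). CPM values carry that scaling, and log2 CPM uses a prior count of 2. The main test was the quasi-likelihood test of edgeR, fitted as inhibitor minus vehicle to all 8 libraries with no covariate, Benjamini-Hochberg adjusted over all genes, with a threshold of 0.05. Titles number the mice 1 to 4 in each group, so libraries were taken as separate animals. Libraries of a group differed by a chi-square per degree of freedom of at least 23.7.

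Deviations from the group means correlated at 0.397, 0.710, 0.673 and 0.682 between same-number libraries of mice 1 to 4. Some different-number libraries correlated more. Vehicle mouse 1 had 0.554 with inhibitor mouse 2, and vehicle mouse 4 had 0.685 with inhibitor mouse 3. Between mice 1 and 2 of 1 group and mice 3 and 4 of the other, the correlations ran from -0.681 to -0.183. The values thus set mice 1 and 2 apart from mice 3 and 4 and do not establish matched pairs. The labels state no pairing either, so differences within same-number pairs are descriptions only.

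The alternatives were scaling by total counts or by DESeq2 size factors, no filter on low counts or at least 1 CPM in every library, DESeq2 1.42.0, limma 3.58.1 (voom with quality weights, and limma-trend on log2(FPKM + 1) and log2(TPM + 1) for genes at 1 or more in at least 4 libraries), a block for mouse number, each library left out, and mice 1 and 2 or 3 and 4 only. Counts were also simulated for the 15096 genes, each gene drawn by itself from the fitted trend of spread. They had no split of mice 1 and 2 from mice 3 and 4, and only genes averaging at least 1 CPM were altered. The share of altered genes that edgeR called was 0% for a 1.5-fold change, 14% for 2-fold, 86% for 4-fold and 98% for 8-fold. There were 4 false calls. The real libraries have that split, so these shares need not hold for them. Whether they hold for the chemokines of the set was not tested. In the real data the tested members had standard errors from 0.308 (Cx3cl1) to 0.805 (Ccl22), above the median of 0.259 over all genes.

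The members, lists and alternatives were chosen with earlier results of these data known. Text names the members, their receptors, the 3 genes of each list with the smallest p, Mmp9 and the 2 genes nearest in pattern to each member with above-median spread; other genes were chosen after their values were seen. No test was made over a list. Floors of 3 reads cover counting error only. Motifs were searched in 250-base windows. Shared 50-base words were counted in the GENCODE M21 transcripts on both strands.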

Additional observations from a re-analysis of the deposited data

Results flagged for a closer look

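Dixon's test on log2 CPM was applied to the 4 ears of each group for 53 genes, 106 groups in all, and set 5 ears apart, where chance gives about 5% of groups. None was a value of a chemokine of the set. Ccr4 was low in inhibitor mouse 1 at 0.685 CPM, against 4.73 to 6.39 CPM in the other 3 inhibitor ears. Cxcl3 was high in inhibitor mouse 2 at 542 CPM, against 12.1 to 18.6 CPM. Ccl28 was low in vehicle mouse 2 at 0.344 CPM, against 1.18 to 1.43 CPM. Cfp, the properdin gene and the second nearest in pattern to Ccl24, was low in vehicle mouse 3 at 80.2 CPM, against 115 to 121 CPM. Rnf144a was low in vehicle mouse 3 at 11.6 CPM, against 15.6 to 16.3 CPM.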

How the results depend on the processing

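Over the 19 alternatives the number of genes past the threshold was 0 each time, as was the number of members. Genes at an unadjusted p under 0.05 ranged from 42 to 2515. The median log2 fold change of the members ranged from -0.28 to 0.37, so its sign was not stable. Ccl24, Ccl27a and Cxcl12 kept their direction in every alternative that tested them, from 0.36 to 0.89, -0.71 to -0.28 and 0.16 to 1.13. The 6 other tested members changed sign in places, all without a call. With the mouse number as a replicate block, Cxcl14 was -0.029, and the block changed no call; 724 genes had an unadjusted p under 0.05 with it, against 157 without. With limma-voom, Ccl22 was -0.17, Cxcl14 -0.077 and Cx3cl1 -0.036. With total counts Cxcl16 was 0.03, under the median of all genes there; that median moved from 0.026 to 0.121 with total counts, 0.115 with FPKM and 0.146 with TPM. With mice 1 and 2 only, Ccl11 was -0.34, Ccl17 -0.38, Cxcl14 -0.36 and Cx3cl1 -0.061, and with mice 3 and 4 only, Ccl22 was -0.064 and Cxcl16 0.20. Leaving out 1 library moved Ccl11 from -0.11 to 0.77, Ccl17 from -0.15 to 0.47, Ccl22 from -0.34 to 0.74, Cxcl14 from -0.33 to 0.22, Cxcl16 from -0.30 to 0.17 and Cx3cl1 from -0.16 to 0.17. The cause was not tested. The order of levels was the same in FPKM, and a prior count of 0.5 left 16 of 18 nearest genes. Depth limits Ccl17 and Cxcl13, with at most 29 and 15 reads.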

Other observations

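Receptors for eosinophil and B cell chemokines were highest in the ears with the most neutrophil markers. This was noticed after the values were seen and was not tested. In vehicle mice 1 and 2 and inhibitor mouse 2, where neutrophil markers summed to 7283 to 13680 CPM, Ccr3 had 3.36 to 11.1 CPM and Cxcr5 had 4.37 to 8.20 CPM. In the other 5 ears Ccr3 had 0.274 to 0.968 CPM and Cxcr5 had 0.0685 to 1.22 CPM. Other eosinophil and B cell markers went several ways. Epx did not exceed 0.0513 CPM and Ms4a1 did not exceed 0.207 CPM in any of the 8 ears. Siglecf was highest in vehicle mouse 2 at 1.17 CPM and inhibitor mouse 2 at 0.870 CPM, Cd79a in vehicle mice 1 and 2 at 1.61 and 1.24 CPM, and Pax5 in inhibitor mouse 2 at 1.68 CPM, while Cd79b was highest in inhibitor mouse 4 at 2.56 CPM.

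The lymphoid chemokines Ccl21a and Ccl19, which guide dendritic cells and T cells through Ccr7, were low in mice 1 and 2 and high in mice 3 and 4 of both groups, as Ccl22 was. Ccl21a, which has close copies in the mouse genome and is therefore uncertain, measured 16.9, 25.3, 94.9 and 246 CPM across the vehicle ears (mice 1 to 4) and 6.51, 56.9, 130 and 229 CPM across the inhibitor ears. Ackr4, a scavenger of both, had 11.8, 11.9, 58.2 and 59.1 CPM with vehicle and 26.9, 32.1, 49.8 and 39.2 CPM with the inhibitor.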
